A study of Mus musculus with 12 samples.

Results

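The respiratory chain genes of both genomes were described in cultured mouse fibroblast-like synoviocytes, the connective tissue cells that line the joint. Members were chosen by name from the gene table: nuclear genes with subunit names of complexes I to V, and the 13 protein-coding genes of mitochondrial DNA (mtDNA). Subunits with other names, such as Cyc1 and Ndufab1, fall outside the rule. The rule found 97 genes of 36875 gene symbols, of which 84 are nuclear and 13 are encoded in mtDNA. The nuclear members belong by name to complex I (37 genes), complex II (4), complex III (8), complex IV (18) and complex V (17), and the mtDNA members to complex I (7), III (1), IV (3) and V (2). The symbol Atp5c1-ps, a pseudogene, was left out as the rule asks. Measured expression played no part in the rule.

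RNA was sequenced from poly(A)-enriched libraries, 4 in each of 3 groups. The resolution group (DOX OFF in the sample descriptions) came from mice that drank doxycycline (1 mg/ml, in 5% sucrose water) over 3 weeks, after which the drug was stopped. The inflammation group (DOX ON) had the same 3 weeks of doxycycline without the stop, and the homeostasis group (WT) had 3 weeks of 5% sucrose water alone. One extraction protocol, given for all 12 samples, names cells from mice with arthritis induced by tumour necrosis factor. The study asked how activated synoviocytes affect endothelial cells during resolution. The labels give no genotype other than WT, and no strain, age, sex, transgene, promoter or time after withdrawal, and they do not say whether the groups share a genotype. Since they also do not tell whether replicates are different animals or cultures, the p-values cover the spread between libraries of a group, possibly a technical one.

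Libraries held 18120745 to 34971537 counts, so that a count of 0 allowed a level of up to 0.0858 to 0.166 CPM (counts in 1000000 counts; the limit is 3 counts of the total and covers counting error only). All 8 fibroblast markers were above 1 CPM in every group, and their sum was 9319 to 14420 CPM in resolution, 18710 to 20860 CPM in inflammation and 26160 to 27950 CPM in homeostasis, with 6 and 4 of 8 lower than in homeostasis in resolution and inflammation and 1 higher in each. Summed macrophage markers reached 39.5 to 43.2 CPM in resolution, 539 to 619 CPM in inflammation and 65.7 to 130 CPM in homeostasis, with all 8 markers higher in inflammation and 6 of 8 lower in resolution, each against homeostasis. Summed chondrocyte markers reached 62.4 to 90.7, 34.3 to 43.9 and 866 to 1121 CPM in the same order, summed Schwann cell markers 14.1 to 15.6, 8.07 to 9.74 and 25.7 to 29.7 CPM, and summed skeletal muscle markers 25.1 to 38.4, 57.7 to 89.5 and 35.8 to 43.0 CPM. Of 6 tested skeletal muscle markers, 5 were lower than in homeostasis in each group, and 1 was higher in inflammation. Of 4 tested Schwann cell markers 2 were lower in resolution and 4 in inflammation. The Y-linked gene Ddx3y had no count in resolution, 0 to 0.137 CPM in inflammation and 22.2 to 26.2 CPM in homeostasis, so a comparison with homeostasis also sets libraries almost without Y-linked transcripts against libraries with them, and these cannot be told apart. Homeostasis libraries 1 and 2 also differed from 3 and 4 in some measures but not in others. Summed nuclear complex V members had 4861 and 5065 CPM in 1 and 2, and 5402 and 6011 CPM in 3 and 4. The mtDNA members took 1.40% and 1.35% of counts in 1 and 4, and 1.70% and 1.67% in 2 and 3. The part of these differences in the results below was not tested. In bulk RNA, fewer cells of a type and less RNA per cell cannot be told apart either.

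The respiratory chain passes electrons from NADH (complex I) and succinate (complex II) through complex III to complex IV, which reduces oxygen, and complex V uses the proton gradient so formed to make ATP. All subunits of complex II are nuclear, whereas complexes I, III, IV and V each combine nuclear subunits with subunits translated inside the mitochondrion. Mitochondrial genes are copied as long transcripts from both strands of a small circular genome and are then cut into single RNAs, while the nuclear genes have separate promoters, many with sites for the factors NRF1, YY1 and GABPA (an ETS factor). Fibroblasts of the inflamed joint are known for high glycolysis beside respiration.

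An example of how compact mtDNA is bears on the counts of 2 members. ATP8 and ATP6 overlap, and the capitals below mark the 43 bases that both genes use (MT:7907-7989, plus strand, GRCm38, from the GENCODE transcripts); the shared stretch begins with the start codon of ATP6 and ends with the stop codon of ATP8. Both genes had counts that were not whole numbers in 1 library, so their values are not independent of each other. Such counts were found in 6 members. The others are Atp5o and Uqcr10, in every library, and Ndufa9 and Ndufs1, in some.
ATP8 and ATP6 overlap: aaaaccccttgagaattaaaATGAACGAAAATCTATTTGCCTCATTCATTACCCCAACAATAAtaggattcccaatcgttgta

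For the nuclear members, 4 promoters of 300 bases show the motifs searched (RefSeq, GRCm38.p6; 250 bases before the annotated start to 50 after it). Sdhb, Atp5j and Uqcrc1 are shown as members that were lower in resolution than in homeostasis, calls that ended with GC and length offsets (-0.18, -0.13 and -0.16), and Ndufa6 as one that was higher. Atp5j has another promoter entry (chr16:84835576-84835875), which holds none of the motifs searched. The printed Atp5j entry lies at the start of Gabpa, a gene on the opposite strand that begins at 84834925. Capitals mark GCATGCGC (NRF1), AAGATGGC (YY1) or CCGGAAG (ETS) on either strand.
Sdhb, iron-sulfur subunit of complex II, chr4:140961021-140961320, plus strand, 1 NRF1 match and 1 ETS match: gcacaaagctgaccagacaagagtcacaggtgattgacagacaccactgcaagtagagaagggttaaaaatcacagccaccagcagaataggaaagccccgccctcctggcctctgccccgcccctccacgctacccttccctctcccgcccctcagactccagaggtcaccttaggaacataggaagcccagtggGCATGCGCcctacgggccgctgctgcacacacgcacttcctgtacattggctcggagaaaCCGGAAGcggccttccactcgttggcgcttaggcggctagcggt
Atp5j, peripheral stalk subunit of complex V, chr16:84834927-84835226, minus strand, 1 YY1 match and 1 ETS match: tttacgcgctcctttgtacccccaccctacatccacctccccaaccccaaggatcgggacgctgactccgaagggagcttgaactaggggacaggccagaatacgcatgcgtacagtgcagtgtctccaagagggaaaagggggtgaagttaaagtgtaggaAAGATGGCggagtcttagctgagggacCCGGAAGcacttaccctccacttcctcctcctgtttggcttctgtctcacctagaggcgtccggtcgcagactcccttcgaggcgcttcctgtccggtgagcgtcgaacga
Uqcrc1, core protein of complex III, chr9:108936398-108936697, plus strand, overlapping NRF1 matches on both strands: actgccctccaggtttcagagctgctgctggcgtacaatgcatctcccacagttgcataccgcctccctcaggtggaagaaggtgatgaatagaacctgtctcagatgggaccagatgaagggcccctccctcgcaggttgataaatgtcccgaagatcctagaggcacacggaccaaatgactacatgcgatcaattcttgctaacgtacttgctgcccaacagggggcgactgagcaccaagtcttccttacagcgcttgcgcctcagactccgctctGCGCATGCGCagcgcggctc
Ndufa6, accessory subunit of complex I, chr15:82354242-82354541, minus strand, 1 NRF1 match: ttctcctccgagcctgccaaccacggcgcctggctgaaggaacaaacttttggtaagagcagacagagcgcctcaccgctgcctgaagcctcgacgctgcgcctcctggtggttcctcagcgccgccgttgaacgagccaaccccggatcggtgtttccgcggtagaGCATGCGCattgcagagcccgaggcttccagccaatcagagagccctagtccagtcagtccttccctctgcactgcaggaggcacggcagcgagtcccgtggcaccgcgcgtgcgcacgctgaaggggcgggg

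Of the 84 nuclear members, 66 had a promoter entry. Among these 66 genes the NRF1 letters were found in 15.2%, the YY1 letters in 13.6% and the ETS letters in 24.2%, and 43.9% held at least 1 of the 3. Over the 10788 tested genes with an entry the shares were 5.63%, 4.95%, 18.5% and 26.4%. The motif letters were present in 8 of the 22 members with an entry that were lower in resolution than in homeostasis (36.4%) and in 20 of the 38 that were tested there and did not pass (52.6%). A match is a description of the sequence and not a bound site.

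As shares of all reads, the mtDNA members were above homeostasis in resolution and inflammation, an order that turned round in the test for every gene but COX1 (and, in resolution, ND3, which was below already) once GC content and length were taken into account as described further on, and the nuclear members were below it in resolution. The 13 mtDNA genes took 2.80%, 1.97%, 3.24% and 2.78% of all counts in resolution, 2.41%, 2.28%, 2.45% and 1.83% in inflammation, and 1.40%, 1.70%, 1.67% and 1.35% in homeostasis. Every resolution and inflammation library was above every homeostasis library. The 84 nuclear genes took 1.02%, 0.953%, 0.855% and 0.915% in resolution, 1.13%, 1.08%, 0.975% and 0.856% in inflammation, and 1.06%, 1.05%, 1.12% and 1.18% in homeostasis. For these the resolution libraries lay below every homeostasis library and the inflammation libraries overlapped both other groups. The ratio of mtDNA counts to nuclear member counts was 2.91 ± 0.714 in resolution, 2.22 ± 0.196 in inflammation and 1.39 ± 0.206 in homeostasis (SD, n = 4 each). These sums over members are given without a test.

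**Figure D1:**
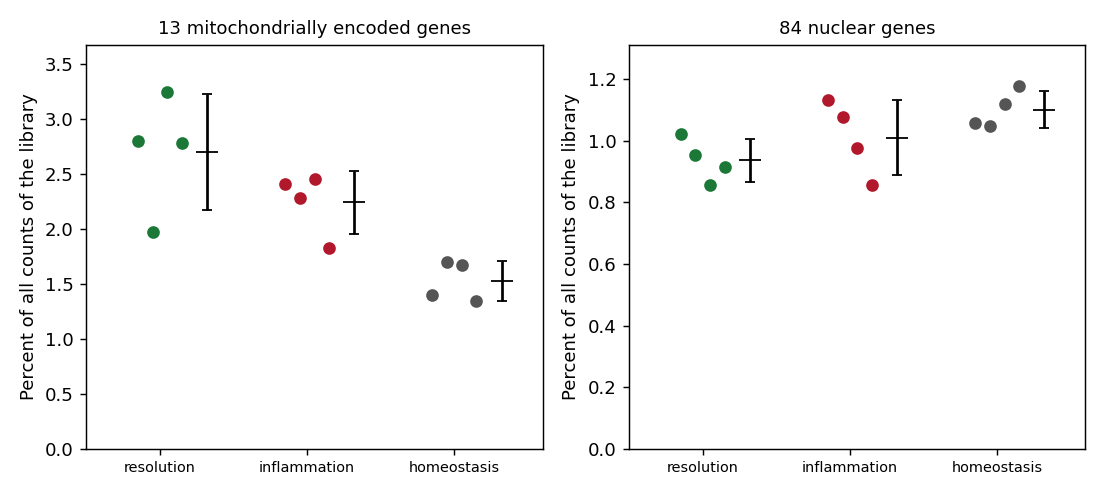
Percent of all counts of a library (y axis) taken by the 13 mitochondrially encoded genes (left) and the 84 nuclear genes (right) in the 3 groups. Each point is 1 library, and the bar beside it is the mean with its SD (n = 4); the mtDNA share is above every homeostasis library in all resolution and inflammation libraries, while the nuclear share is lowest on average in resolution (0.936%).

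In the test over all 15049 genes that passed the filter (edgeR quasi-likelihood test, Benjamini-Hochberg adjusted p under 0.05), 8 of 13 mtDNA genes were higher in resolution than in homeostasis and 0 were lower, with a median log2 fold change of 0.54 that became -0.34 with offsets for GC content and transcript length, described further on. Over all tested genes 27.5% were called higher and 25.8% lower, with a median of -0.007. In inflammation against homeostasis 8 of 13 were again higher and 0 lower, with a median of 0.45 (-0.23 with the offsets), where 19.0% of all genes were called higher and 18.3% lower. The 2 comparisons share the homeostasis libraries. Between resolution and inflammation 0 of 13 passed in either direction, with a median of 0.18, where 8.52% of all genes were called higher and 7.64% lower. With the offsets the median was -0.10 and ATP6, COX3 and ND3 were lower, as were 8.24% of all genes. At an unadjusted p under 0.05 there were 2 mtDNA genes, and DESeq2 called 0 higher and 1 lower; without resolution library 2, 3 were higher, and without inflammation library 4, 1 was lower. Homeostasis libraries 1 and 2 as the sole controls gave 6 higher in resolution and 4 in inflammation, and libraries 3 and 4 gave 9 and 7. The count in inflammation was 4, 5 and 2 without inflammation library 1, 2 and 3, and 4 without homeostasis library 1 or 4, while the count in resolution was 7 to 10 whichever library was left out.

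**Figure D2:**
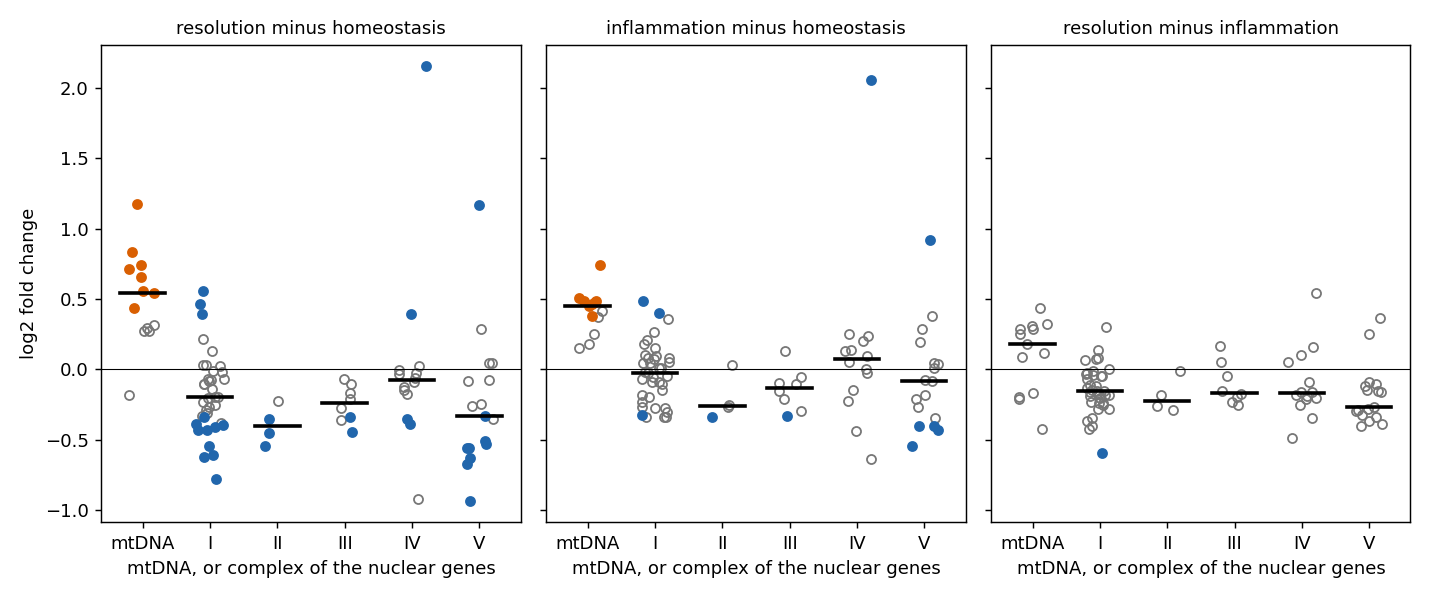
Log2 fold change (y axis) of every tested member in the 3 comparisons, grouped as mtDNA genes and as nuclear genes of complexes I to V (x axis). Filled points passed the adjusted threshold of 0.05, open points did not, and bars are medians; the mtDNA medians are 0.54 in resolution and 0.45 in inflammation against homeostasis, and 0.18 in resolution against inflammation, all below 0 with GC and length offsets, and the nuclear points lie mostly below 0 in both panels that involve resolution.

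COX1, the catalytic subunit of complex IV, changed most among the mtDNA genes. It had 8121, 4374, 8999 and 7758 CPM in resolution, 5785, 5291, 6055 and 4515 CPM in inflammation, and 3074, 2966, 3758 and 3159 CPM in homeostasis. Each library of the first 2 groups exceeded each homeostasis library, and resolution library 2 lay below the lowest inflammation library. The log2 fold change was 1.17 ± 0.176 in resolution against homeostasis (SE, adjusted p = 1.66e-05) and 0.74 ± 0.175 in inflammation against homeostasis (adjusted p = 0.00251). Resolution against inflammation gave 0.43 ± 0.174 (adjusted p = 0.0934), which did not pass, and 0.38 ± 0.14 (adjusted p = 0.0438) in a fit of those groups with the replicate number as a block. COX2, which takes up electrons from cytochrome c, averaged 1827 ± 267 CPM in resolution, 1612 ± 180 CPM in inflammation and 1240 ± 187 CPM in homeostasis (SD, n = 4 each), and passed against homeostasis in resolution (0.56) and in inflammation (0.38), where the call ended when any library but inflammation 4 or homeostasis 2 was left out. COX3, the third core subunit, averaged 1884 ± 156, 2118 ± 275 and 1516 ± 293 CPM in the same order. It passed in inflammation (0.48, adjusted p = 0.0121) and gave 0.31 in resolution (adjusted p = 0.0704).

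Complex I subunits of the membrane arm, which pumps protons, made up 7 of the mtDNA members. ND1 had 2898, 2274, 3700 and 3054 CPM in resolution, 2644, 2414, 2626 and 1837 CPM in inflammation, and 1444, 2075, 1623 and 1546 CPM in homeostasis. The resolution libraries were all above homeostasis, whereas inflammation library 4 fell below homeostasis library 2. The log2 fold change of ND1 was 0.83 ± 0.161 in resolution (adjusted p = 2.33e-04) and 0.51 ± 0.16 in inflammation (adjusted p = 0.0172), a call that ended without inflammation library 3. ND4, ND4L, ND5 and ND2 also rose in resolution against homeostasis, by 0.74, 0.72, 0.66 and 0.44, and the ND2 call ended without resolution library 3 or homeostasis library 1, 3 or 4. Among these 4, ND4 passed in inflammation (0.49, not without inflammation library 3), while ND4L, ND5 and ND2 gave 0.41, 0.37 and 0.15 there without passing. ND6, the one member coded on the other strand, gave 0.30 in resolution and 0.18 in inflammation and passed in neither.

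ND3 was the exception in direction. Its levels were 125.1, 132.5, 155.6 and 153.8 CPM in resolution, 213.5, 210.6, 195.5 and 143.2 CPM in inflammation, and 151.1, 182.5, 183.1 and 125.7 CPM in homeostasis. Groups overlapped in all 3 comparisons, and the log2 fold change was -0.18 ± 0.151 in resolution against homeostasis (adjusted p = 0.329) and -0.43 ± 0.151 against inflammation (adjusted p = 0.0589; 0.0128 with the replicate block). ND3 made up 0.563% ± 0.0976 of mtDNA counts in resolution, 0.848% ± 0.0808 in inflammation and 1.00% ± 0.0838 in homeostasis (SD, n = 4 each), while COX1 made up 28.0% ± 3.63, 24.1% ± 0.436 and 20.5% ± 2.81.

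CYTB, the mtDNA subunit of complex III that carries its quinone sites, averaged 2619 ± 527 CPM in resolution, 2463 ± 260 CPM in inflammation and 1802 ± 297 CPM in homeostasis (SD, n = 4 each). It passed against homeostasis in resolution (0.54 ± 0.152, adjusted p = 0.00572) and in inflammation (0.45 ± 0.152, adjusted p = 0.0256), with homeostasis library 2 inside the range of the other groups. ATP6, the proton channel subunit of complex V, had 1599, 1453, 2008 and 1636 CPM in resolution, 2126, 1928, 2091 and 1602 CPM in inflammation, and 1042, 1478, 1953 and 1084 CPM in homeostasis. The groups overlapped through homeostasis libraries 2 and 3, and ATP6 passed in inflammation (0.48 ± 0.175, adjusted p = 0.0369) but not in resolution (0.27 ± 0.174, adjusted p = 0.201). ATP8, a small membrane subunit read from the same RNA, gave 0.47 in inflammation (adjusted p = 0.0441) and 0.27 in resolution (adjusted p = 0.204). The inflammation calls of CYTB, ATP6 and ATP8 each ended without inflammation library 1 or 3 or homeostasis library 1 or 4, those of ATP6 and ATP8 also without inflammation library 2, that of CYTB also without homeostasis library 3 and that of ATP8 also without homeostasis library 2.

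Per kilobase of transcript, COX1 had the highest level of the mtDNA members in resolution, at 4733 CPM per kb, followed by ND1 at 3116 and ATP8 at 2972 CPM per kb. In inflammation COX1 and ATP8 were close, at 3503 and 3404 CPM per kb. In homeostasis ATP8 came first at 2463 CPM per kb, ahead of COX1 at 2097 and ATP6 at 2040 CPM per kb. ATP8 is 204 bases long and shares 43 of them with ATP6, so its rank per kb is uncertain. The lowest was ND3 in resolution, at 407 CPM per kb, and ND4L in homeostasis, at 456 CPM per kb against 461 for ND3. The highest nuclear member on the same per-length scale was Atp5b, at 780, 949 and 1205 CPM per kb in resolution, inflammation and homeostasis.

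Base composition moved with these values. The mtDNA genes have a GC content of 31.9% to 41.1%, against 42.0% to 61.1% for the nuclear members, and all 13 lie in the lowest of 5 equal GC classes of tested genes. In that class of 2831 genes, the median log2 fold change was 0.78 in resolution against homeostasis, 0.42 in inflammation against homeostasis and 0.35 in resolution against inflammation, where the class of highest GC content gave -0.26, -0.06 and -0.21. Of tested genes with known GC content, 6.49% were as low in it as the mtDNA genes. When GC content and transcript length were entered as offsets, an alternative chosen after seeing the data, 1 mtDNA gene was higher and 8 were lower in resolution than in homeostasis, with a median log2 fold change of -0.34. In inflammation against homeostasis 0 were then higher and 3 lower, with a median of -0.23. COX1 was the one that remained higher in resolution (0.33 ± 0.126, adjusted p = 0.0381), and ND1 gave -0.10. The direction of the mtDNA genes against homeostasis thus depended on this setting.

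**Figure D3:**
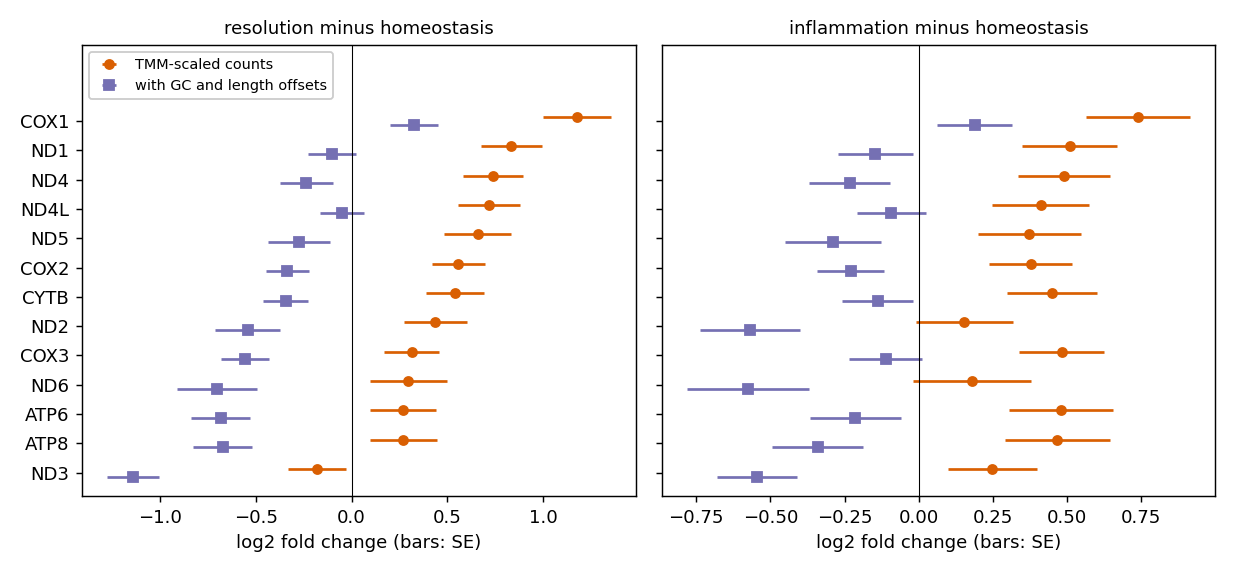
Log2 fold change with its SE (x axis) of each mtDNA gene (rows) against homeostasis, for resolution (left) and inflammation (right). Circles are the TMM-scaled counts and squares the fit with GC and length offsets; in resolution COX1 is at 1.17 and at 0.33 in the 2 fits, and ND1 at 0.83 and at -0.10.

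**Figure D4:**
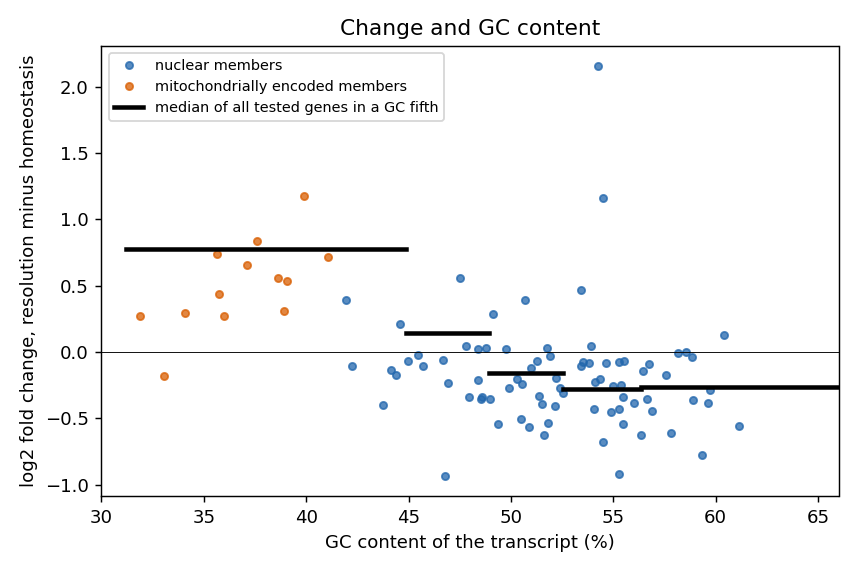
Log2 fold change in resolution against homeostasis (y axis) and GC content of the transcript in percent (x axis) for nuclear and mtDNA members. Bars are the medians of all tested genes in 5 equal GC classes, from 0.78 in the lowest to -0.26 in the highest. The mtDNA members all lie within the GC range of the lowest class, some above its bar and some below.

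Among nuclear members, 80 of 84 passed the expression filter. The other 4 are isoforms known from other tissues: Cox6a2 and Cox8b (heart and skeletal muscle), Cox7b2 and Cox8c (testis). Cox6a2 had 0 counts in resolution, 2 in inflammation and 6 in homeostasis over the 4 libraries of each group, and Cox8c had 0 in all 12 libraries. Of the 93 tested members, 92 were above the filter level of 0.474 CPM in every library, and Cox7a1 was the exception.

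In resolution against homeostasis, 6 of 80 nuclear members were higher and 25 were lower, with a median log2 fold change of -0.21, beside 27.5% higher and 25.8% lower over all genes. With GC and length offsets the median was -0.08, with 48 of 80 values negative in place of 65. The share that was lower (31.2%) is near that of all genes, and the share that was higher (7.5%) is below it. In inflammation against homeostasis 4 were higher and 7 lower, with a median of -0.05, and both shares (5% and 8.75%) are below those of all genes. These counts were 2 and 2 without inflammation library 3, 8 and 3 without inflammation library 4, 3 and 3 without inflammation library 2, 4 and 4 without homeostasis library 4, and 7 and 12 with homeostasis libraries 3 and 4 as the sole controls. The median was 0.02 with upper-quartile factors and 0.035 without inflammation library 4. Resolution against inflammation called 0 higher and 1 lower, with a median of -0.17, and 66 of 80 values were negative (-0.08 and 55 with the offsets). Same-numbered resolution and inflammation libraries deviated together weakly (r of 0.126 to 0.214), and resolution library 2 was closest to inflammation library 1. The labels do not state a pairing, so it is an assumption here. Without a block, a fit of these 2 groups gave 1 nuclear member higher and 3 lower, where 11.0% of all genes were higher and 9.80% lower. A block over all 12 libraries gave 6.30% of all genes higher and 6.31% lower. With the replicate number as a block in a fit of these 2 groups, chosen after seeing the data, 1 nuclear member was higher and 16 were lower, where 17.5% of all genes were higher and 15.1% lower. The 16 belong to complex V (8), complex I (6), complex II (1) and complex IV (1), and the higher one is Atp5f1. Leaving out inflammation library 4, without the block, gave 8 lower, and leaving out resolution library 1, 3 or 4 or inflammation library 1 or 2 gave 0.

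Complex I receives electrons from NADH, and 10 of its 37 nuclear members were lower in resolution than in homeostasis and 3 higher (27.0% and 8.11%, beside 25.8% and 27.5% of all genes), with a median of -0.20. Its nuclear core subunits bind the flavin and the iron-sulfur clusters. Ndufv1, which holds the flavin, had 116.5, 114.3, 89.9 and 89.4 CPM in resolution, 137.4, 135.9, 117.6 and 108.6 CPM in inflammation, and 140.7, 130.3, 163.3 and 199.0 CPM in homeostasis. Resolution lay below homeostasis in every library, and inflammation overlapped both other groups. Its log2 fold change in resolution against homeostasis was -0.63 ± 0.148 (adjusted p = 0.0015), and that of Ndufs8, also a core subunit, was -0.61; with the offsets these were -0.34 and -0.35, still called. The core subunits Ndufs3, Ndufs7 and Ndufv2 gave -0.09, -0.39 and -0.24 without passing. Ndufa9, an accessory subunit, was the 1 nuclear complex I member lower in inflammation (-0.32, adjusted p = 0.0362), and it kept that call only without inflammation library 1 or homeostasis library 2 and not with the offsets (-0.27).

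Ndufs1, the largest iron-sulfur subunit of the core, moved the other way. It had 123.5, 89.7, 140.8 and 131.9 CPM in resolution, 96.1, 88.8, 96.6 and 113.5 CPM in inflammation, and 106.1, 102.7, 82.3 and 78.2 CPM in homeostasis. Resolution library 2 lay within the homeostasis range, and the log2 fold change was 0.39 ± 0.15 (adjusted p = 0.0322), a call that ended without resolution library 1, 3 or 4 or homeostasis library 3 or 4. Ndufs1 overlaps a long non-coding gene on the opposite strand over 14695 bases, and since no source used here gives the strand setting of the counting, reads of the 2 cannot be told apart.

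Ndufa1, an X-linked accessory subunit needed for assembly, had 31.2, 32.4, 42.1 and 39.0 CPM in resolution, 33.6, 36.2, 38.1 and 29.3 CPM in inflammation, and 26.8, 28.5, 23.9 and 18.8 CPM in homeostasis. Each resolution and inflammation library was above each homeostasis library, and the log2 fold changes were 0.56 ± 0.156 (adjusted p = 0.00524) and 0.48 ± 0.156 (adjusted p = 0.0207). Ndufa6, on chromosome 15, averaged 52.1 ± 4.15 CPM in resolution, 49.6 ± 4.86 CPM in inflammation and 37.7 ± 3.59 CPM in homeostasis (SD, n = 4 each), with log2 fold changes of 0.47 and 0.40. In inflammation the call of Ndufa1 ended without inflammation library 3 or homeostasis library 4, and that of Ndufa6 without inflammation library 2 or 3. Unlike all mtDNA genes but COX1, Ndufa1, Ndufa6 and Ndufs1 kept a positive value with GC and length offsets in resolution (0.49, 0.72 and 0.57).

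Ndufa4l2 is a paralogue of Ndufa4 that is induced by hypoxia-inducible factor, and Ndufa4 itself is now counted with complex IV. It had 17.4, 26.0, 12.6 and 21.1 CPM in resolution, 34.5, 29.1, 23.6 and 29.2 CPM in inflammation, and 26.4, 31.1, 36.0 and 38.9 CPM in homeostasis. Resolution was below homeostasis in every library and overlapped inflammation through its library 2. The log2 fold change was -0.78 ± 0.194 against homeostasis (adjusted p = 0.00224) and -0.59 ± 0.194 against inflammation (adjusted p = 0.0417), where the call was kept only without resolution library 2 or inflammation library 3. With the block it was -0.64 ± 0.14 (adjusted p = 0.00129), and with the offsets -0.36 ± 0.147 (adjusted p = 0.104). As a share of Ndufa4l2 and Ndufa4 together, in CPM, it made up 16.0% ± 4.20 in resolution, 20.1% ± 2.69 in inflammation and 23.5% ± 3.72 in homeostasis (SD, n = 4 each).

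Complex II, which joins the citric acid cycle to the chain, had 3 of 4 subunits lower in resolution than in homeostasis and 1 in inflammation. Of all genes 25.8% and 18.3% were lower in these comparisons. Sdha, the flavoprotein, had 407.6, 402.8, 376.9 and 376.1 CPM in resolution, 378.2, 388.6, 386.6 and 422.7 CPM in inflammation, and 478.9, 581.9, 475.8 and 456.8 CPM in homeostasis. All resolution and inflammation libraries lay below all homeostasis libraries, at -0.35 ± 0.116 (adjusted p = 0.0151) and -0.34 ± 0.115 (adjusted p = 0.0267). Both Sdha calls ended without homeostasis library 2, and the one in inflammation also without inflammation library 1, 2 or 3 and with the offsets (-0.18). Sdhb, whose promoter is printed above, averaged 134.9 ± 12.6 CPM in resolution, 153.3 ± 20.1 CPM in inflammation and 184.5 ± 23.9 CPM in homeostasis. It passed in resolution (-0.45, adjusted p = 0.00754) and gave -0.27 in inflammation (adjusted p = 0.121). Sdhd, a membrane anchor, was also lower in resolution (-0.54, adjusted p = 0.00281), and Sdhc, the other anchor, gave -0.23 (adjusted p = 0.276). With the offsets Sdhb gave -0.18 (adjusted p = 0.0934) and no longer passed.

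Complex III passes electrons from quinol to cytochrome c. Its nuclear members Uqcrc1 (a core protein) and Uqcrfs1 (the Rieske iron-sulfur protein) were lower in resolution than in homeostasis, at -0.45 and -0.34, and Uqcrc2, the other core protein, was lower in inflammation, at -0.33 (adjusted p = 0.0359). Of its 8 nuclear members these are 25% and 12.5%, near and below the 25.8% and 18.3% of all genes. The calls of Uqcrc1 and Uqcrfs1 ended without resolution library 3 or 4 or homeostasis library 4, and that of Uqcrc2 was kept only without homeostasis library 3 or 4. With the offsets Uqcrc1 gave -0.16 in resolution (adjusted p = 0.154) and was not called, while Uqcrc2 was called lower in resolution and in inflammation (-0.63 and -0.57). Uqcrc1 averaged 246.8 ± 35.4 CPM in resolution, 290.2 ± 39.2 CPM in inflammation and 336.1 ± 60.4 CPM in homeostasis (SD, n = 4 each). Uqcrc2 gave -0.17 in resolution against homeostasis, and the other 5 nuclear members gave -0.36 to -0.07 there, all without passing.

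Complex IV reduces oxygen, and of its 14 tested nuclear members 2 were higher and 2 lower in resolution than in homeostasis. These are 14.3% each, beside 27.5% higher and 25.8% lower of all genes. Cox6b2, a testis-type isoform of subunit VIb on chromosome 7, had 4.69, 8.26, 6.03 and 5.26 CPM in resolution, 6.85, 5.77, 5.33 and 4.73 CPM in inflammation, and 0.964, 1.72, 1.25 and 1.40 CPM in homeostasis. Every resolution and inflammation library exceeded every homeostasis library. The log2 fold change was 2.15 ± 0.238 in resolution (adjusted p = 4.49e-07) and 2.06 ± 0.238 in inflammation (adjusted p = 1.72e-06), the largest rise among tested members in both comparisons. Of Cox6b1 and Cox6b2 together, in CPM, Cox6b2 made up 2.67% ± 0.595, 2.19% ± 0.178 and 0.553% ± 0.120 in resolution, inflammation and homeostasis, so the common isoform Cox6b1 remained the main one.

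Cox7b, an X-linked subunit, was also higher in resolution, at 75.5 ± 11.4 CPM against 57.6 ± 8.72 CPM in homeostasis (0.39, adjusted p = 0.024), and its value was -0.31 with the offsets. Cox5a and Cox5b, subunits on the matrix side of the enzyme, were lower in resolution (-0.35 and -0.39). The Cox7b call ended without resolution library 3 or 4 or homeostasis library 3 or 4, the Cox5a call without resolution library 4, and the Cox5b call without resolution library 1, 3 or 4 or homeostasis library 2 or 4. With the offsets Cox5a gave -0.29 (adjusted p = 0.0511) and Cox5b -0.12 (adjusted p = 0.386), neither called. Cox4i2, the isoform of subunit IV known for low oxygen in lung, made up 0.784% ± 0.191 of Cox4i1 and Cox4i2 in resolution, 0.483% ± 0.0784 in inflammation and 0.751% ± 0.154 in homeostasis, and passed in no comparison. Cox4i1 gave -0.17 and 0.005 in resolution and inflammation against homeostasis. Cox7a1, the heart and muscle isoform, had 0.28 to 0.635 CPM in resolution, 0.309 to 1.00 CPM in inflammation and 0.584 to 1.37 CPM in homeostasis and passed in no comparison, and Cox7a2, its common counterpart, gave -0.03 and 0.14 against homeostasis.

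Complex V, the ATP synthase, had 8 of its 17 nuclear members lower in resolution than in homeostasis, with 1 higher and a median of -0.33 (47.1% and 5.88%, beside 25.8% lower and 27.5% higher of all genes). In inflammation against homeostasis 4 were lower and 1 higher (23.5% and 5.88%, beside 18.3% and 19.0% of all genes). Summed over its nuclear members, complex V had 3938, 3885, 3228 and 3462 CPM in resolution, 4786, 4506, 4152 and 3737 CPM in inflammation, and 4861, 5065, 5402 and 6011 CPM in homeostasis. The sums in resolution and in inflammation were below those in homeostasis in every library. With the replicate block, 8 complex V members were lower in resolution than in inflammation, where 15.1% of all genes were, among them Atp5b (-0.30 ± 0.105, adjusted p = 0.0319), Atp5a1 (-0.29) and Atp5g1, Atp5g2 and Atp5g3 (-0.41, -0.41 and -0.33).

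The F1 head, which makes ATP, has 5 nuclear subunits, and 4 of them were lower in resolution (80%, beside 25.8% of all genes). Atp5b, the catalytic beta subunit, had 1669, 1654, 1254 and 1400 CPM in resolution, 2050, 1918, 1759 and 1543 CPM in inflammation, and 2073, 2091, 2362 and 2713 CPM in homeostasis. No resolution or inflammation library reached the lowest homeostasis library, although inflammation library 1 came close to it. The log2 fold change was -0.63 ± 0.137 in resolution (adjusted p = 7.5e-04) and -0.35 ± 0.137 in inflammation (adjusted p = 0.0529), where it did not pass. Atp5a1, the alpha subunit, averaged 917 ± 101 CPM in resolution, 1107 ± 82.7 CPM in inflammation and 1467 ± 149 CPM in homeostasis (SD, n = 4 each), and passed in both comparisons with homeostasis (-0.68 and -0.40). Atp5c1, the gamma subunit of the rotating shaft, gave -0.56 and -0.41 and passed in both, and Atp5d, the delta subunit, passed in resolution (-0.56) but overlaps Cbarp on the opposite strand over 2204 bases. In inflammation the Atp5a1 call ended without homeostasis library 4 and the Atp5c1 call without inflammation library 3 or 4. With the offsets Atp5b, Atp5a1 and Atp5d gave -0.41, -0.38 and -0.28 in resolution, still called. Atp5e, the epsilon subunit, gave -0.08 and 0.28 without passing.

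The c ring is the proton-driven rotor, and Atp5g1, Atp5g2 and Atp5g3 code for the same mature protein. Atp5g1, on chromosome 11, had 10.9, 8.03, 6.80 and 6.33 CPM in resolution, 11.9, 12.0, 9.25 and 8.88 CPM in inflammation, and 14.9, 9.63, 17.8 and 19.1 CPM in homeostasis. Homeostasis library 2 lay inside the range of both other groups. The log2 fold change was -0.93 ± 0.216 in resolution (adjusted p = 0.00122) and -0.55 ± 0.212 in inflammation (adjusted p = 0.04996, just under the threshold, kept only without homeostasis library 2 and not with the offsets). Atp5g3 was lower in resolution too (-0.51, adjusted p = 0.00621, and -0.36, adjusted p = 0.0574, with the offsets). It had 267.9 CPM per kb in resolution against 1.72 for Atp5g1 and 14.5 for Atp5g2. The length used for Atp5g1, 4660 bases, exceeds its whole RefSeq gene (chr11:96072793-96075694), so by that annotation its value per kb is too low. Atp5g2 gave -0.36 (adjusted p = 0.0541).

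Of the 4 peripheral stalk subunits, Atp5o and Atp5j were lower in resolution (-0.53 and -0.33), and Atp5o also in inflammation (-0.43, not without homeostasis library 2). These are 50% and 25%, beside 25.8% and 18.3% of all genes. The Atp5j call ended without resolution library 1, 3 or 4 or homeostasis library 1 or 2, and it gave -0.13 with the offsets (adjusted p = 0.332). Atp5o gave -0.32 in resolution with the offsets and was still called. Its deposited counts were not whole numbers in any library. Atp5f1 gave 0.28 and Atp5h -0.24 without passing, and with the replicate block Atp5f1 was 0.35 ± 0.1 higher in resolution than in inflammation (adjusted p = 0.00974). Atp5s, the coupling factor B, was the complex V member that was higher in both comparisons with homeostasis, with 4.22, 3.36, 3.54 and 5.08 CPM in resolution, 3.70, 3.68, 3.38 and 2.87 CPM in inflammation, and 2.38, 1.51, 1.25 and 2.08 CPM in homeostasis. The groups did not overlap against homeostasis (1.17 and 0.92), and the gene lies below the level set for named members, so it was chosen after its values were seen. Atp5s and Atp5sl carry the Atp5 name but are not structural subunits of the enzyme.

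**Figure D5:**
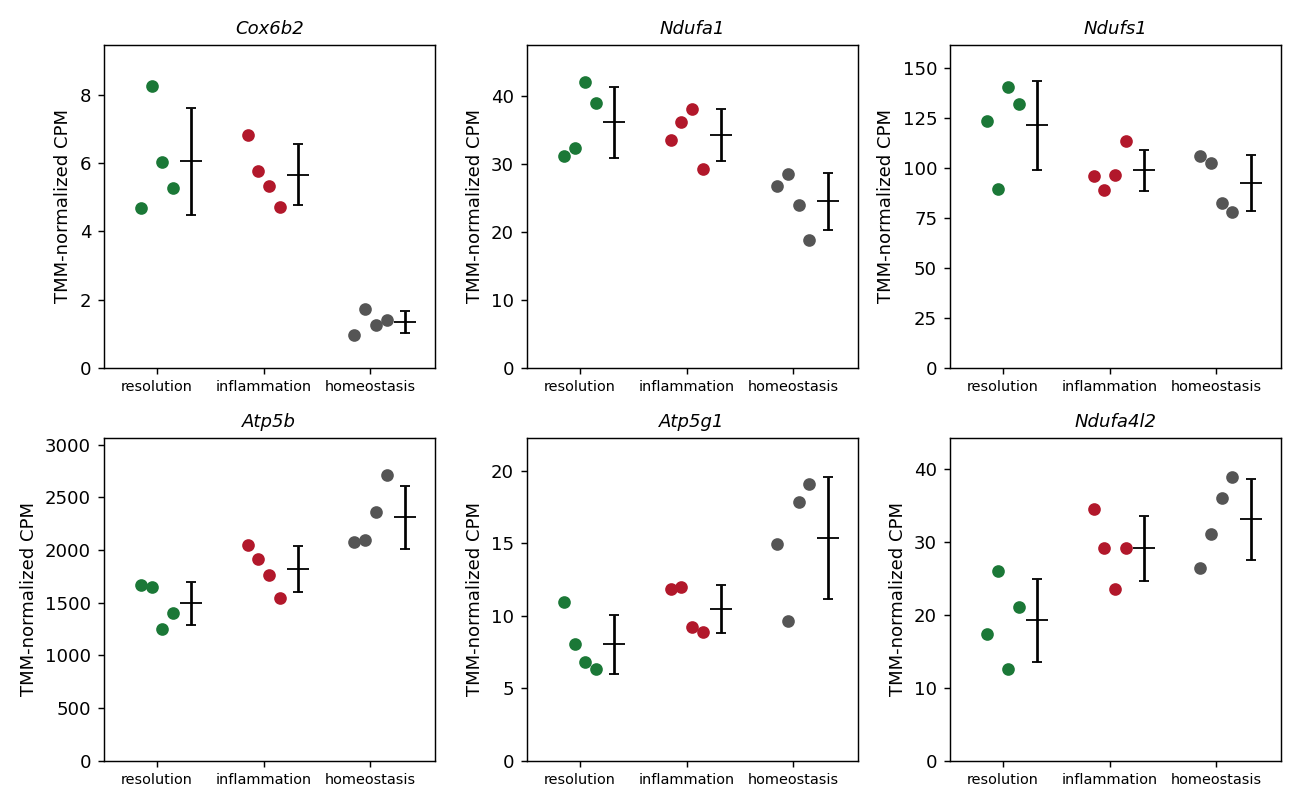
TMM-normalized CPM (y axis) of 6 nuclear members in the libraries of the 3 groups (x axis), with the mean and SD (n = 4) beside the points. Cox6b2 averages 6.06, 5.67 and 1.34 CPM in resolution, inflammation and homeostasis, while Atp5b averages 1494, 1817 and 2310 CPM in the same order.

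Across the 80 tested nuclear members, Pearson's r of the log2 fold change with GC content was -0.13 in resolution against homeostasis and 0.03 in inflammation against homeostasis, and with log2 transcript length -0.35 and -0.43. For resolution against inflammation r was -0.34 with GC content and 0.01 with log2 length. These genes share their libraries and are not independent replicates. With GC and length offsets 10 nuclear members were higher and 22 lower in resolution against homeostasis, and 11 higher and 7 lower in inflammation against homeostasis. Of the nuclear members, 30 had every resolution library below every homeostasis library and 4 had every one above, beside 21.6% and 21.9% of all genes. For inflammation against homeostasis 9 lay wholly below and 3 above (17.3% and 18.1% of all genes), and for resolution against inflammation 3 below and 0 above (9.91% and 8.94% of all genes).

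Genes that build and serve the chain were counted by lists chosen with earlier results of these data known. Among 53 tested assembly factors, 6 were higher and 14 lower in resolution than in homeostasis, and 2 were higher and 10 lower in inflammation, where leaving out 1 inflammation library gave 5 or 6 lower and the offsets gave 5 higher. As shares these are 11.3% and 26.4% in resolution, beside 27.5% and 25.8% of all genes, and 3.77% and 18.9% in inflammation, beside 19.0% and 18.3%. Tmem126b, a complex I assembly factor, averaged 16.1 ± 4.43 CPM in resolution, 9.41 ± 1.28 CPM in inflammation and 4.99 ± 0.3 CPM in homeostasis (SD, n = 4 each), and it was higher in both groups than in homeostasis (1.69 and 0.92) and in resolution than in inflammation (0.77, adjusted p = 0.00866). Sdhaf4, listed as 1110058L19Rik and needed to build complex II, was higher in both (1.14 and 0.99). Coa7 and Higd1a, which serve complex IV, were lower in both, at -1.17 and -0.73 for Coa7 and at -1.05 and -0.56 for Higd1a. Against inflammation, Higd1a and Tmem261 (Dmac1, a complex I factor) were lower in resolution (-0.49 and -0.52). In that comparison 1 assembly factor was higher and 2 were lower (1.89% and 3.77%, beside 8.52% and 7.64% of all genes). Against inflammation, the Tmem126b call ended without resolution library 4, that of Higd1a without resolution library 1 or inflammation library 1 or 2, and that of Tmem261 without resolution library 3 or 4 or inflammation library 1, 2 or 3.

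The list of 17 electron carrier genes covers coenzyme Q synthesis, cytochrome c, and Etfa, Etfb and Etfdh. It also holds Cyc1 and Ndufab1, subunits of complexes III and I whose names fall outside the member rule. In resolution 1 was higher and 6 lower than in homeostasis (3 lower without homeostasis library 3). These are 5.88% and 35.3%, beside 27.5% and 25.8% of all genes. Coq5, a methyltransferase of coenzyme Q synthesis, was lower in both comparisons with homeostasis (-0.62 and -0.40), as was Coq6 (-0.47 and -0.48). Coq4 was lower in resolution (-0.76). Adck3 (Coq8a) was the higher one, at 0.90 and 0.79. In inflammation the Coq5 call was kept only without homeostasis library 3, and the Coq6 calls in both comparisons ended without homeostasis library 1, 3 or 4, in resolution also without resolution library 3 or 4 and in inflammation also without inflammation library 3 or 4. The Coq5 call in inflammation also ended with relative log expression or upper-quartile factors, with the mtDNA genes left out of library sizes, with no filter, in a fit of the groups compared and with the offsets (-0.26). The Coq6 call in resolution ended with the offsets (-0.19), and the one in inflammation with upper-quartile factors and in a fit of the groups compared (-0.41 and -0.45).

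Among 31 tested genes for mtDNA upkeep and expression, 8 were higher and 11 lower in resolution than in homeostasis, with a median of -0.03. These are 25.8% and 35.5%, beside 27.5% and 25.8% of all genes, and with the offsets 3 were higher. Without resolution library 3 the counts were 5 and 7, and with homeostasis libraries 1 and 2 or 3 and 4 as the sole controls 5 and 14 were higher. Pnpt1, a polynucleotide phosphorylase that degrades mitochondrial RNA and is also known as an interferon-induced gene, averaged 45.8 ± 2.87 CPM in resolution, 41.0 ± 6.94 CPM in inflammation and 21.7 ± 1.65 CPM in homeostasis (SD, n = 4 each), at 1.08 and 0.92. Supv3l1, the helicase that works with Pnpt1, was lower, at -0.79 and -0.67. Polg, the mtDNA polymerase, averaged 56.4 ± 6.75 CPM in resolution, 81.8 ± 5.74 CPM in inflammation and 122.8 ± 16.2 CPM in homeostasis and was lower in all 3 comparisons (-1.12, -0.59 and -0.54). It was the 1 of 31 called between resolution and inflammation (3.23%, beside 7.64% lower of all genes). Mterf2 was higher in both comparisons with homeostasis (0.85 and 0.63) and Fastkd3 lower (-0.997 and -0.80), while Fastkd2 was higher in resolution (0.82, but 0.12 and not called with the offsets).

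Mitochondrial ribosomal proteins translate the mtDNA messages. Of 77 tested, 4 were higher and 48 lower in resolution than in homeostasis, with a median of -0.48. These are 5.19% and 62.3%, beside 27.5% and 25.8% of all genes, and with the offsets 2 were higher. In inflammation 1 was higher and 27 lower (1.30% and 35.1%, beside 19.0% and 18.3% of all genes). There 17 and 16 were lower without inflammation library 3 and 4, and 16 with upper-quartile factors. Mrpl18, Mrpl40 and Mrpl12 were lower in both comparisons with homeostasis (-0.89, -0.92 and -0.92 in resolution). Mrpl1 was higher in both (0.83 and 0.50) and Mrpl47 in resolution (0.61). Against inflammation, Mrpl13 was the 1 gene higher in resolution (0.48) and Mrpl28 the 1 lower (-0.46). These are 1.30% each, below the 8.52% and 7.64% of all genes. The Mrpl1 call in inflammation was kept only without homeostasis library 1, and with the offsets Mrpl1 gave 0.12 in both comparisons and Mrpl47 gave 0.28, none of them called. The Mrpl13 call against inflammation was kept only without resolution library 2, and the Mrpl28 call only without resolution library 2 or inflammation library 4. With the offsets Mrpl28 gave -0.20 there and was not called.

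Regulators of mitochondrial biogenesis were mixed, with 5 of 15 higher and 3 lower in resolution than in homeostasis (33.3% and 20%, beside 27.5% and 25.8% of all genes), and 3 higher with the offsets. Gabpa, the ETS factor whose site was searched above, averaged 105.8 ± 23.2 CPM in resolution, 70.5 ± 5.98 CPM in inflammation and 46.2 ± 6.36 CPM in homeostasis (SD, n = 4 each), and was higher in all 3 comparisons (1.20, 0.61 and 0.59). It shares 701 bases with Atp5j on the opposite strand. Nrip1, a corepressor of oxidative genes, was higher in both comparisons with homeostasis (1.62 and 1.09). Nrf1 was lower in both (-0.79 and -0.52), and so were Pprc1, a PGC-1 related coactivator (-1.13 and -0.56), and Myc (-1.22 and -0.46). Pprc1 and Myc were also lower in resolution than in inflammation (-0.57 and -0.76), and Yy1 was higher there (0.50). In that comparison 3 of 15 were higher and 2 lower (20% and 13.3%, beside 8.52% and 7.64% of all genes). Against inflammation, the Gabpa call ended without resolution library 3 or 4 or inflammation library 2 and gave 0.22 with the offsets. The Pprc1 call there ended without resolution library 1 or 4 or inflammation library 2, and also with the offsets (-0.37). The Yy1 call there was kept only without resolution library 2 or inflammation library 4. In inflammation against homeostasis the Myc call ended without inflammation library 2 or 3 or homeostasis library 2, and Gabpa gave 0.18 with the offsets.

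In the citric acid cycle, which supplies NADH and succinate, 4 of 22 genes were higher and 10 lower in resolution than in homeostasis (18.2% and 45.5%, beside 27.5% and 25.8% of all genes). Idh2, the NADP-linked isocitrate dehydrogenase of mitochondria, had 20.3, 24.3, 14.7 and 18.9 CPM in resolution, 41.6, 36.0, 31.2 and 27.2 CPM in inflammation, and 101.9, 128.1, 98.9 and 127.5 CPM in homeostasis. The 3 groups did not overlap, and Idh2 was lower in resolution than in homeostasis (-2.54 ± 0.174, adjusted p = 6.12e-10), in inflammation than in homeostasis (-1.75 ± 0.169) and in resolution than in inflammation (-0.80 ± 0.168). Sucla2, a subunit of the ADP-forming succinyl-CoA synthetase, was higher in all 3 (1.20, 0.66 and 0.54). Dlst was lower in both comparisons with homeostasis (-0.69 and -0.53), and Pdk1 too (-0.47 and -0.86). Pdk2 was higher in both (0.60 and 0.59). Dld was higher in resolution than in either group (0.71 and 0.52), and so was Pdk4, a kinase that turns off pyruvate dehydrogenase (0.77 and 0.96). Between resolution and inflammation 3 of 22 were higher and 1 lower (13.6% and 4.55%, beside 8.52% and 7.64% of all genes). With the offsets Dld gave -0.03 against homeostasis and 0.24 against inflammation, where it was no longer called. The Pdk1 call in resolution ended without resolution library 2 or 3 or homeostasis library 1 or 2, and against inflammation the Dld call ended without resolution library 4 and the Sucla2 call without resolution library 3 or 4.

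Carriers and structural proteins of mitochondria had 2 of 23 higher and 13 lower in resolution than in homeostasis (8.70% and 56.5%, beside 27.5% and 25.8% of all genes). Vdac1, the outer membrane pore, averaged 275.9 ± 32.2 CPM in resolution, 329.3 ± 18.1 CPM in inflammation and 450.3 ± 17.8 CPM in homeostasis (SD, n = 4 each) and was lower in both (-0.71 and -0.45), as were Phb2 (-0.86 and -0.51), Chchd3 (-0.83 and -0.71) and Hspd1 (-0.62 and -0.72; -0.22 and -0.31, not called, with homeostasis libraries 3 and 4 as the sole controls). Dnm1l, which divides mitochondria, was higher in both (1.18 and 0.93), and Opa1, which fuses inner membranes, in resolution (0.80).

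Hypoxia targets and factors were counted because Ndufa4l2 is one of their targets. Of 15 tested, 1 was higher and 8 lower in resolution than in homeostasis, and 2 were higher and 7 lower in inflammation. These are 6.67% and 53.3% in resolution, beside 27.5% and 25.8% of all genes, and 13.3% and 46.7% in inflammation, beside 19.0% and 18.3%. Hif1a, which codes for the factor itself, averaged 750.7 ± 149 CPM in resolution, 574 ± 71.1 CPM in inflammation and 262.9 ± 32.7 CPM in homeostasis (SD, n = 4 each) and was higher in both (1.51 and 1.13). Ndrg1 and Lonp1 were lower in both (-1.95 and -1.64 for Ndrg1, -0.97 and -0.79 for Lonp1). Car9 was higher in inflammation (0.73, a call that ended without inflammation library 3 or 4 or homeostasis library 1 or 2), and Epas1 was higher in resolution than in inflammation (0.71) and lower in inflammation than in homeostasis (-0.99). Against inflammation, the Epas1 call ended without resolution library 4. Epas1 was the 1 of 15 called there (6.67%, beside 8.52% higher of all genes).

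With the replicate block, 11 of the genes named from the lists passed between resolution and inflammation that had not passed without it. In that fit 17.5% of all genes were higher and 15.1% lower, beside 8.52% and 7.64% in the test of all 12 libraries without it. These 11 genes had been named because each was called in another comparison. Nrip1, Mrpl47, Pdk1, Opa1 and Hif1a were then higher in resolution (0.53, 0.40, 0.38, 0.39 and 0.36). Coa7, Coq4, Mrpl12, Phb2, Vdac1 and Car9 were lower (-0.45, -0.47, -0.36, -0.35, -0.27 and -0.66).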

How the data were processed

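RNA from 12 mouse synoviocyte libraries, in 3 groups of 4, was measured by poly(A) RNA-seq. The deposited values are estimated read counts per gene symbol (expected counts, of which 1.43% were not whole), made by the authors on GRCm38.p3, per the submitters' processing notes; no source used here gives the aligner, counter, annotation or strand setting. Entries sharing a symbol were summed (42 of 36930 entries; 13 held no value), values were rounded to whole numbers, and 18120745 to 34971537 counts per library remained.

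Genes were kept with filterByExpr (15049), scaled by TMM and tested with edgeR 4.0.16 in R 4.3.3 (robust quasi-likelihood F test, group as the sole term, all 12 libraries, biological coefficient of variation 18.6%). Benjamini-Hochberg adjustment ran over all genes tested, with a threshold of 0.05. The standard error (SE) of a log2 fold change, computed from the deposited counts, was taken from the F statistic. CPM values are TMM-normalized. The code was tested on simulated data with known changes.

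Members and lists were chosen with earlier results of these data known. Named were all mtDNA members, complex II, the isoform pairs, per comparison the 4 nuclear members with the largest rise and the 4 with the largest fall among those called whose higher group averaged 5 CPM or more, and per comparison and list the 2 genes per direction with the smallest adjusted p; a few other members were chosen after their values were seen and are named for their role in a complex. In the lists, 1 assembly factor and 1 mtDNA expression gene were not matched. The values of 1 member are not reported here.

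Replicate numbers come from the labels. Deviations from the group means of same-numbered resolution and inflammation libraries correlated weakly, at 0.139, 0.126, 0.214 and 0.141. Resolution library 2 correlated most with inflammation library 1. Treating these libraries as paired is thus an assumption, and the block fit of these groups was added after seeing the data. GC content and transcript length come from 1 GENCODE transcript per gene (GRCm38), the middle one by length of its protein-coding transcripts where it has any. They entered an added fit as offsets per library (natural splines with 5 degrees of freedom). This transcript may not be the main one of a gene: the lengths used were 4660 bases for Atp5g1, 4371 for Ndufb2, 651 for Ndufs1 and 580 for Uqcrc1. Levels per kb, length correlations and offset values of such genes carry this limit. Promoters come from RefSeq (GRCm38.p6), and motif letters were searched on both strands. Alternatives were other scaling factors, no filter, DESeq2 1.42.0, fits of the groups compared, left-out libraries, homeostasis subsets, the replicate block and the offsets.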

Additional observations from a re-analysis of the deposited data

Results flagged for a closer look

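Within each group of 4 libraries, the level of each named member was checked for a library far from the rest (a gap to its nearest neighbour that, as a share of the group's range, is above Dixon's critical value). Of 192 groups of values, 2 were picked out, where chance picks out about 1 in 20. Atp5g2, a c ring gene, had 12.5 CPM in resolution library 3, where the other 3 had 9.68 to 10.1 CPM (gap 0.848 of the range). ND2 had 1658 CPM in homeostasis library 2, where the other 3 had 960 to 1059 CPM (gap 0.858 of the range).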

How the results depend on the processing

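Of the called members, 19 in inflammation against homeostasis, 39 in resolution against homeostasis and 1 in resolution against inflammation, all kept their direction under every alternative except the GC and length offsets, and 4, 26 and 0 of them stayed called whichever library was left out. With the offsets 15 reversed and 16 were no longer called, and with homeostasis libraries 1 and 2 as the sole controls 28 of 58 were no longer called, in a fit with fewer samples. The cause of the change with the offsets was not tested.

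With the offsets, inflammation against homeostasis gave -0.21 for ATP6, -0.34 for ATP8, -0.23 for COX2, -0.11 for COX3, -0.14 for CYTB, -0.15 for ND1 and -0.23 for ND4. Resolution against homeostasis gave -0.33 for COX2, -0.34 for CYTB, -0.31 for Cox7b, -0.026 for Dld (a citric acid cycle gene), -0.10 for ND1, -0.54 for ND2, -0.24 for ND4, -0.049 for ND4L and -0.28 for ND5. In inflammation against homeostasis the offsets gave 11 nuclear members higher, 0 mtDNA members higher and 3 lower. In resolution against homeostasis they gave 10 nuclear members higher, 1 mtDNA member higher and 8 lower. In resolution against inflammation they gave 2 nuclear members higher and 3 mtDNA members lower.

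For inflammation against homeostasis, the nuclear count of 7 lower was 1 with upper-quartile factors and 4 in a fit of the groups compared. With homeostasis 3 and 4 as the sole controls 7 nuclear members were higher and 12 lower, and with homeostasis 1 and 2, 4 mtDNA members were higher; in resolution against homeostasis 3 nuclear members were then higher. For resolution against inflammation, nuclear members lower were 2 with upper-quartile factors, 3 in a fit of the groups compared and 2 with DESeq2, and 1 was higher in a fit of the groups compared. There 1 mtDNA member was higher without a filter, and 1 was lower with upper-quartile factors, without a filter, in a fit of the groups compared and with DESeq2.

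Leaving out 1 library at a time gave, in inflammation against homeostasis, 2 to 10 mtDNA members higher, 0 to 0 lower, 2 to 8 nuclear members higher and 2 to 6 lower. In resolution against homeostasis it gave 7 to 10, 0 to 0, 4 to 7 and 17 to 24, and in resolution against inflammation 0 to 3, 0 to 1, 0 to 2 and 0 to 8.

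With the replicate number as a block in the resolution and inflammation libraries, 1 nuclear member was higher and 16 lower, and 1 mtDNA member was higher (COX1) and 1 lower (ND3). Of all genes 17.5% were then higher and 15.1% lower. Without the block Ndufa4l2 alone was called there, and it stayed called with it. Same-numbered libraries did not deviate together with homeostasis (-0.228 to 0.0802), and there the replicate block over all 12 libraries gave 3 nuclear members lower in inflammation, with other counts within 1.5 times.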
